A study of Homo sapiens with 5 samples.

Results

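The collagen chains were examined in D54, an established human glioma cell line, with and without silencing of TIP-1. TIP-1, encoded by TAX1BP3, consists of little more than 1 PDZ domain, a module that grips the tail ends of partner proteins. The members were the genes whose annotated symbol is COL, a number, A and a number, and 43 of the 18417 genes with a row of their own met this rule. Where a gene had several rows, its brightest row over the 5 arrays was taken. They comprised 11 fibrillar chains, 6 chains of basement membrane type IV, 10 FACIT chains (fibril-associated collagens with interrupted triple helices), 3 transmembrane chains and 13 others. Every chain entered the test, since no row was filtered for low signal. In 3 arrays the cells carried a TIP-1 shRNA, a different one in each, and in 2 arrays, from independent clones, they carried a control shRNA. All cells were D54 transfected with an shRNA construct, reseeded after trypsin and grown overnight in DMEM/F12 before total RNA was taken. With 1 array per TIP-1 shRNA, differences among the 3 shRNAs have no replicate check, and the p-values measure only the spread between these samples.

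Collagens are trimers. Each chain carries a long run of repeats in which every triplet begins with glycine, and partner chains wind into a triple helix in the endoplasmic reticulum before secretion. Fibrillar types I, II, III, V and XI form banded fibrils, type IV forms the network of basement membranes, FACIT chains decorate fibril surfaces, and type VI forms beaded filaments. Normal brain tissue outside its vessels holds little fibrillar collagen, while tumour vessels and cultured glioma cells can make several types.

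The silenced gene checked the labels. The row of TAX1BP3, shared with a read-through transcript of the locus, read 9.81, 9.61 and 9.55 in TIP-1 shRNAs 1, 2 and 3, against 12.05 and 12.10 in controls 1 and 2. It fell by 2.42 on the log2 scale (SE 0.10, limma adjusted p = 0.011) and was the only row of 33297 to pass. Without shRNA 2 its limma adjusted p became 0.129, past the threshold no longer. Its difference was -2.45 without control 1 and -2.39 without control 2, where a single control array is left and no call is read. Array medians lay between 7.88 and 7.95 in the TIP-1 shRNA arrays and at 7.96 and 7.98 in the controls. Of 9 glioma and astrocyte markers, VIM and CD44 were bright, at 13.94, 14.02 and 13.84 and 13.80, 13.80 and 13.79 in the TIP-1 shRNA arrays, against 14.02 and 13.95 and 13.80 and 13.73 in the controls. Of the defining astrocyte and neural markers, S100B, SOX2 and OLIG2 were dim, between 6.23 and 7.39 in the TIP-1 shRNA arrays and between 6.24 and 7.50 in the controls. GFAP lay close to the array medians, at 8.14, 8.06 and 7.86 in the TIP-1 shRNA arrays, against 8.04 and 8.14 in the controls. Only SLC1A3 of the 9 lay below both controls in all 3 TIP-1 shRNA arrays, beside 14.1% of all genes, and the rest overlapped. It was dim, at 6.43, 6.44 and 6.14, against 6.57 and 6.57 in the controls. The median difference of the 9 was -0.05, and none passed. Markers of endothelium, macrophages and epithelium had median differences of -0.07, -0.09 and -0.03, and none of these 6, 6 and 5 genes passed. Among them the keratin gene KRT8 and the lysosomal gene CD68 were bright, at 13.36, 13.40 and 13.73 and 12.66, 12.53 and 12.31 in the TIP-1 shRNA arrays, against 13.47 and 13.28 and 12.50 and 12.66 in the controls. Of the 6 endothelial genes, TEK, KDR and VWF were below both controls in all 3 TIP-1 shRNA arrays, beside 14.1% of all genes, and the rest overlapped. Of the 6 macrophage genes, TYROBP was below and CSF1R above both controls in all 3, and the rest overlapped. Of the 5 epithelial genes, EPCAM and KRT14 were below both controls in all 3 TIP-1 shRNA arrays, beside 14.1% of all genes. The adhesion gene CDH1 was above both controls in all 3, beside 12.5% of all genes, and KRT8 and KRT5 overlapped. EPCAM, also an adhesion gene, was dim (difference -0.53, SE 0.19, limma adjusted p = 0.707), and CDH1 differed by 0.08. The values carry no detection call, so a dim chain cannot be called absent, and the signals of different rows are not a scale for comparing one gene's abundance with another's.

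No collagen chain passed the test. Of the 43, 0 had a limma adjusted p under 0.05, beside 0.003% of all rows. In RNA from a whole culture, fewer cells making a chain and less RNA per cell cannot be told apart. At an unadjusted p under 0.05 there was 1 chain on the higher side, COL8A1, beside 3.08% of all genes, and 2 on the lower side, COL27A1 and COL26A1, beside 2.94% of all genes. A difference of at least 0.5 log2 units was reached by 2 chains (4.65%), COL8A1 and COL12A1, beside 1.34% of all genes. The members just short of it were COL6A3 at -0.47 and COL5A2 at 0.34. The absolute difference was larger than the gap between the 2 controls for 15 of 43 chains (34.9%), beside 42.8% of all genes.

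Small differences leaned to the lower side. The median difference, TIP-1 shRNA minus control in log2 units, was -0.09 over the 43 chains and -0.01 over all genes. Over the chains it was -0.139 without shRNA 1, -0.144 without control 1 and -0.03 without shRNA 3. A block for the replicate number gives the same differences as leaving out shRNA 3, since no control shares its number. As deposited the difference was negative for 35 of 43 chains (81.4%), beside 52.4% of all genes. Signal moved with this split: the median difference was -0.05 over genes dimmer than the median gene and 0.03 over brighter genes. Among the chains it was -0.09 for the 26 dimmer and -0.05 for the 17 brighter ones. Of the 26 dimmer chains 23 were below zero, beside 5973 of 9208 dimmer genes. Of the 17 brighter chains 12 were below zero, beside 3686 of 9209 brighter genes. The count of chains below zero was 31 with quantile normalization (49.3% of all genes) and 26 with each array centred on its median (35.1% of all genes). The part that signal and array scaling have in the lean was not tested.

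**Figure D1:**
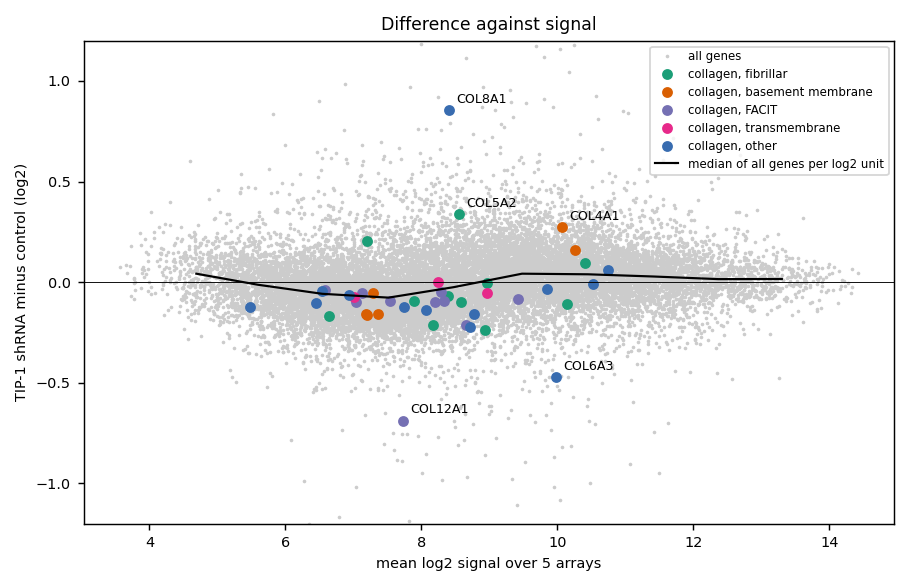
Difference between TIP-1 shRNA and control (log2 units, vertical) against mean log2 signal over the 5 arrays (horizontal) for all genes (grey) and the collagen chains by class; the line joins medians of all genes in bins of 1 log2 unit, and 17 genes lie beyond the plotted range. Most chains, dimmer and brighter ones alike, sit just under zero, with COL8A1 at 0.85 and COL12A1 at -0.69 apart.

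The 3 TIP-1 shRNA arrays all lay above both controls for 2 chains, COL8A1 and COL4A2, beside 12.5% of all genes. They all lay below both controls for 9 chains, beside 14.1% of all genes. These were COL2A1, COL24A1 and COL27A1 among fibrillar chains, COL4A3 and COL4A5 of type IV, COL19A1 and COL20A1 of the FACITs, the anchoring fibril chain COL7A1 and COL26A1. The differences of these 9 ranged from -0.24 for COL27A1 to -0.10 for COL19A1. For the remaining 32 chains the groups overlapped, beside 73.5% of all genes.

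**Figure D2:**
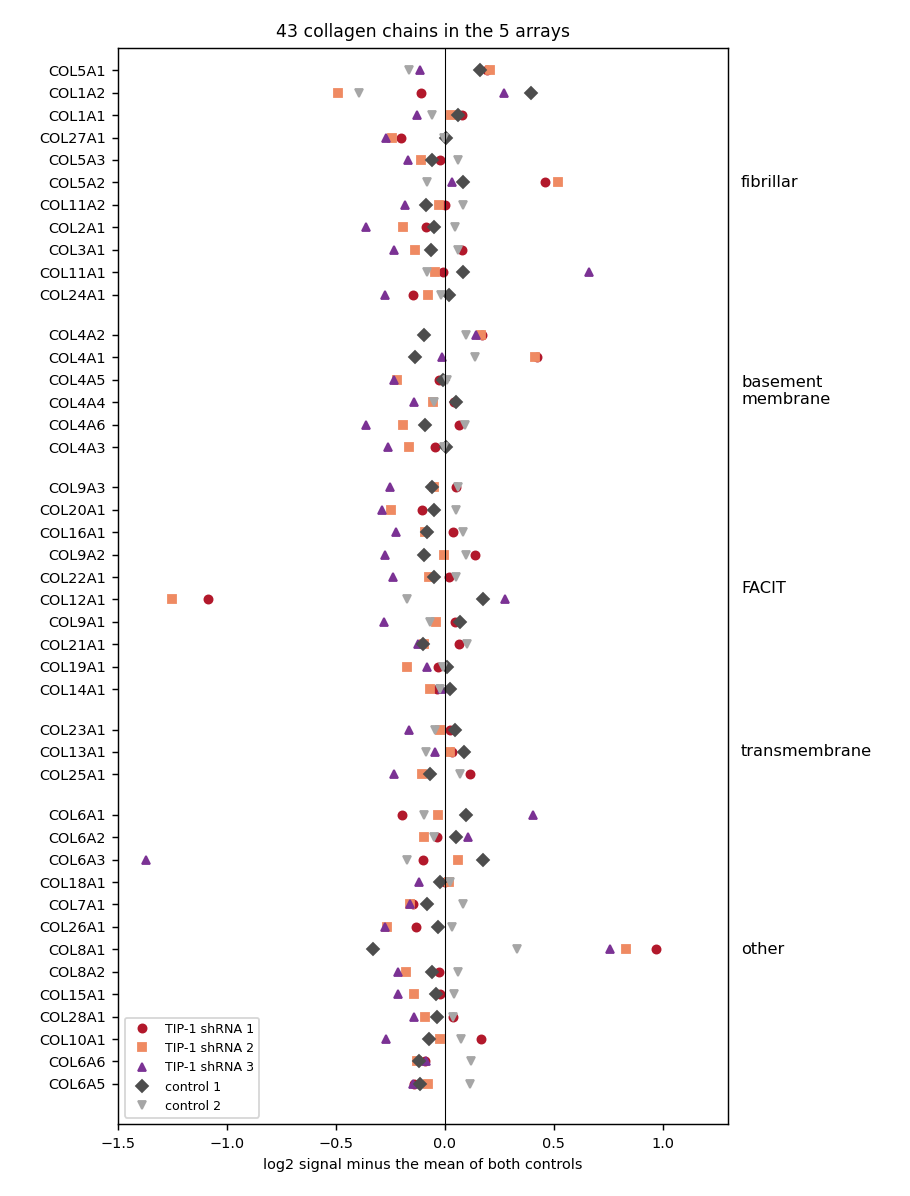
Log2 signal minus the mean of both controls (horizontal) for each of the 43 chains (vertical, by class), with 1 symbol per array. Most symbols lie close to zero; the widest departures are those of COL8A1, COL12A1, COL6A3, COL5A2, COL1A2, COL11A1, COL4A1 and COL6A1.

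Among fibrillar chains, those of type I, the main collagen of bone, skin and scar, did not follow the grouping. COL1A1 read 9.05, 8.995 and 8.84 in TIP-1 shRNAs 1, 2 and 3, against 9.03 and 8.91 in controls 1 and 2, a difference of -0.01 (95% interval -0.25 to 0.24). Its partner COL1A2 read 10.10, 9.72 and 10.48 with TIP-1 shRNA, against 10.60 and 9.81 in the controls. The 2 controls thus lay 0.79 log2 units apart for COL1A2, with shRNAs 1 and 3 between them and shRNA 2 below both. Its difference was -0.11 (SE 0.30, 95% interval -0.83 to 0.61), and it turned to 0.29 without control 1 and to 0.08 without shRNA 2.

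Type V collagen nucleates type I fibrils and limits their width. COL5A1 read 10.54, 10.55 and 10.23 with TIP-1 shRNA, against 10.51 and 10.18 in the controls, and the groups overlapped. COL5A2 read 8.82, 8.87 and 8.39 with TIP-1 shRNA, against 8.44 and 8.27 in the controls. shRNAs 1 and 2 were thus above both controls for COL5A2 while shRNA 3 lay between them. The difference of COL5A2 was 0.34 (SE 0.16, 95% interval -0.06 to 0.73, limma adjusted p = 0.712), against 0.10 for COL5A1 (SE 0.15). The COL5A1 difference turned to -0.07 without control 2.

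COL27A1, a fibrillar chain of developing cartilage, separated the groups by a small margin. It read 8.88, 8.84 and 8.81 with TIP-1 shRNA, against 9.09 and 9.08 in the controls. All 3 shRNA arrays were lower than both controls, which differed by 0.01. The difference was -0.24 (1.18-fold lower, SE 0.08, 95% interval -0.43 to -0.05, limma adjusted p = 0.707). The other fibrillar chains, COL2A1, COL3A1, COL5A3, COL11A1, COL11A2 and COL24A1, had differences between -0.21 and 0.20. COL11A1 held the upper end through 1 array, reading 7.07, 7.03 and 7.74 with TIP-1 shRNA, against 7.16 and 6.995 in the controls. COL3A1, the type III chain of soft tissues, is the genomic neighbour of COL5A2 and differed by -0.10 (95% interval -0.38 to 0.19).

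**Figure D3:**
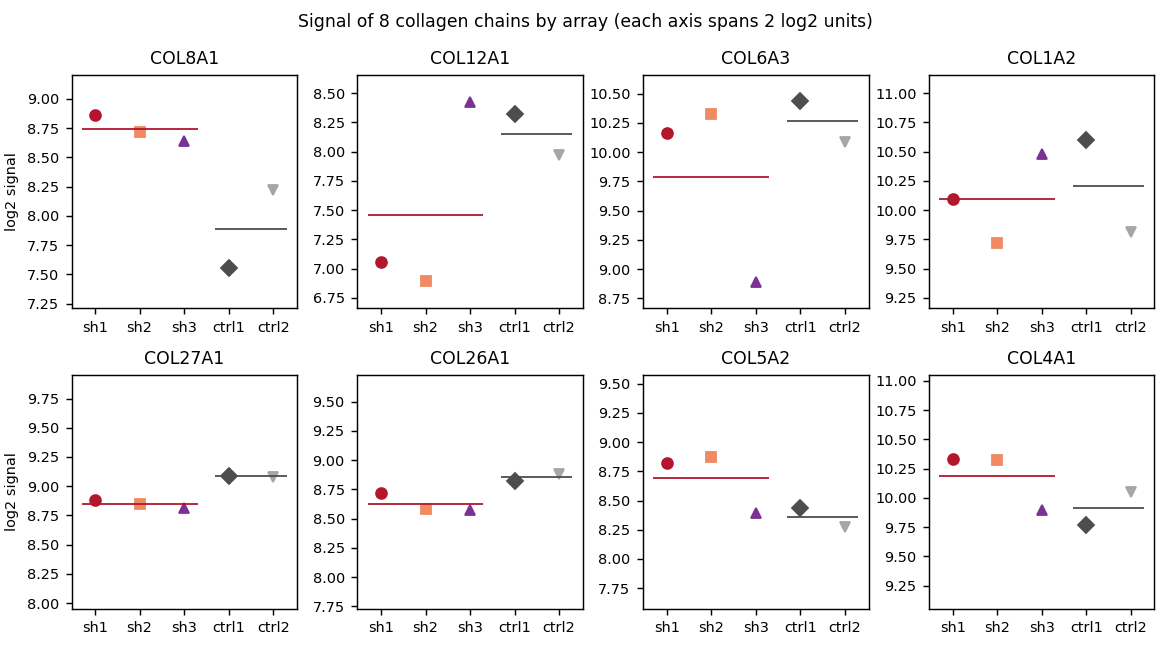
Log2 signal (vertical) in TIP-1 shRNAs 1 to 3 (sh1 to sh3) and controls 1 and 2 (horizontal) for 8 chains, with each axis spanning 2 log2 units and bars at the group means. COL8A1 separates the groups with controls 0.66 apart, COL12A1 is low in shRNAs 1 and 2 alone, and COL6A3 is low in shRNA 3 alone.

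The type IV chains of basement membranes lie in the genome as 3 pairs, each read outward in opposite directions from a shared start region. COL4A1 and COL4A2 make the common network found around brain vessels, COL4A3, COL4A4 and COL4A5 make that of the kidney glomerulus, and COL4A5 also joins COL4A6. RefSeq windows from 250 bases before to 50 after the start were given for 31 of the 43 chains (GRCh38.p14). The windows of the 3 pairs are shown because the partners of each pair are compared next. Each is the plus strand window of the first-named gene, and capitals mark the bases that also lie in the window of its partner on the minus strand.
COL4A2 (with COL4A1), chr13:110307034-110307333, plus strand: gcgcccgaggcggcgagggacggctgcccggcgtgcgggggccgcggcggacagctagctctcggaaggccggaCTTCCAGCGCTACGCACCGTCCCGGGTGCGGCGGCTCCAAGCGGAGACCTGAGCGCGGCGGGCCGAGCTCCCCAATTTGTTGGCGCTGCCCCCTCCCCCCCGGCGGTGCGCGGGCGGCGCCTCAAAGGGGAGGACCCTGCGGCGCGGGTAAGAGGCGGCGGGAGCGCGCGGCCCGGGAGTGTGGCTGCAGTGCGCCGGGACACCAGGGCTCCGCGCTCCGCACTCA
COL4A3 (with COL4A4), chr2:227164374-227164673, plus strand: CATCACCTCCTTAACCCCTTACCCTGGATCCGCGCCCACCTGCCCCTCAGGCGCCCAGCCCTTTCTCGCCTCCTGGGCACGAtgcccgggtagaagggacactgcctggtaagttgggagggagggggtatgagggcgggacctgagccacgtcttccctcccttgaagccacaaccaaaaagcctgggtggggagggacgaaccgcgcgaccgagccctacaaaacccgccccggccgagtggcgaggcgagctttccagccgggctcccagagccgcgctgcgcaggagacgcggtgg
COL4A5 (with COL4A6), chrX:108439588-108439887, plus strand: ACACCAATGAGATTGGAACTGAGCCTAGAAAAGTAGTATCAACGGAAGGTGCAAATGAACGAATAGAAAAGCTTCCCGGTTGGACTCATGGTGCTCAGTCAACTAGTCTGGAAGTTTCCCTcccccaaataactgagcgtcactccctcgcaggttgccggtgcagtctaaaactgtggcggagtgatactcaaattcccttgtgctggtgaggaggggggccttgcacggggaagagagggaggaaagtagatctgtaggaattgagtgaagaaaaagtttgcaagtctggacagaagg
The windows shared 226 bases for COL4A1 and COL4A2, 82 for COL4A3 and COL4A4, and 121 for COL4A5 and COL4A6. The starts on which these windows are placed were 127, 419 and 380 bases apart. For COL4A3 and COL4A4 the outermost annotated gene starts lay 136 bases apart, so the 82 shared bases belong to the windows shown and not to every annotated start. G and C made up 77.7%, 67.7% and 49.3% of the 3 windows. The letters CCAAT, searched on both strands, occurred 1 time in the COL4A2 window, 0 times in that of COL4A3 and 2 times in that of COL4A5, and were held by 34.6% of all 35116 windows. GGGCGG occurred 1, 2 and 0 times and was held by 45.0% of all windows. TATAAA occurred in none of the 3, beside 11.5% of all windows, and no matches of different motifs overlapped. The matches in the windows of COL4A2 and COL4A5 all lay in the shared bases.

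The vessel-type pair read higher on average, without passing. COL4A1 read 10.33, 10.32 and 9.90 with TIP-1 shRNA, against 9.77 and 10.05 in the controls. In COL4A1 shRNAs 1 and 2 were above both controls and shRNA 3 lay between them. COL4A2 read 10.34, 10.33 and 10.31 with TIP-1 shRNA, against 10.07 and 10.26 in the controls, so the 3 shRNA arrays nearly coincided just above control 2. The differences were 0.27 for COL4A1 (SE 0.17, 95% interval -0.13 to 0.68, limma adjusted p = 0.724) and 0.16 for COL4A2 (SE 0.09, 95% interval -0.06 to 0.38, adjusted p = 0.723). Leaving out 1 array moved COL4A1 between 0.14 (without control 1) and 0.42 (without shRNA 3), and COL4A2 between 0.06 (without control 1) and 0.25 (without control 2).

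The other type IV chains were dim. COL4A3 read 7.23, 7.11 and 7.01 with TIP-1 shRNA, against 7.28 and 7.27 in the controls. COL4A4 read 7.36, 7.26 and 7.17 with TIP-1 shRNA, against 7.37 and 7.26 in the controls. COL4A5, whose loss causes X-linked Alport syndrome, read 7.43, 7.24 and 7.22 with TIP-1 shRNA, against 7.45 and 7.46 in the controls. For COL4A3 and COL4A5 each shRNA array was just below both controls, which lay 0.01 and 0.02 apart, whereas the COL4A4 arrays overlapped. COL4A6, found with COL4A5 around smooth muscle, read 7.36, 7.10 and 6.93 with TIP-1 shRNA, against 7.20 and 7.38 in the controls. The differences within the dim pairs were -0.16 and -0.05 for COL4A3 and COL4A4, and -0.16 and -0.16 for COL4A5 and COL4A6. Over genes with a mean log2 signal between 7 and 8, the range in which these chains lie, the median difference was -0.08.

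All 10 FACIT chains differed in the negative direction, beside 52.4% of all genes, by a median of -0.09, and none passed. The lean was not particular to this class. The median was -0.10 for the fibrillar, the type IV and the other chains and -0.05 for the transmembrane ones. Negative were 8 of 11 fibrillar, 4 of 6 type IV, 2 of 3 transmembrane and 11 of 13 other chains. With quantile normalization 8 of the 10 FACIT chains were negative, beside 49.3% of all genes, and with median centring 7 were, beside 35.1%. The median of the FACIT chains was -0.153 without shRNA 1, -0.147 without control 1, -0.055 without control 2 and -0.026 without shRNA 3, and in the last case COL9A2, COL9A1 and COL9A3 turned to 0.07, 0.001 and 0.001. COL12A1, which bridges fibrils in tendon, skin and reactive stroma, stood apart. It read 7.06, 6.89 and 8.42 with TIP-1 shRNA, against 8.32 and 7.97 in the controls. shRNAs 1 and 2 were lower than every other array, while shRNA 3 was the highest of all 5. Against the control mean the 3 shRNAs gave -1.09, -1.25 and 0.28. The difference over all arrays was -0.69 (SE 0.45, 95% interval -1.79 to 0.41, limma adjusted p = 0.737), and without shRNA 3 it was -1.17 (adjusted p = 0.219).

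The type IX chains coat type II fibrils in cartilage. COL9A3 read 9.52, 9.42 and 9.21 with TIP-1 shRNA, against 9.40 and 9.53 in the controls. COL9A2 read 8.46, 8.31 and 8.04 with TIP-1 shRNA, against 8.22 and 8.42 in the controls, and COL9A1 7.64, 7.56 and 7.32, against 7.67 and 7.53. In all 3 chains the groups overlapped and shRNA 3 was the lowest array. Their differences from the control mean nearly coincided in that array, at -0.28, -0.28 and -0.25 for COL9A1, COL9A2 and COL9A3. Over all 10 FACIT chains the median there was -0.23. COL20A1 at -0.29 and COL22A1 at -0.24 lay as low, and COL12A1 at 0.28 lay the other way. COL16A1 read 8.43, 8.30 and 8.17 with TIP-1 shRNA, against 8.31 and 8.48 in the controls, with shRNA 3 again lowest. COL20A1 read 8.67, 8.53 and 8.49 with TIP-1 shRNA, against 8.73 and 8.83 in the controls, so all shRNA arrays were below both controls (difference -0.22, 95% interval -0.45 to 0.02, limma adjusted p = 0.707). COL14A1, COL19A1, COL21A1 and COL22A1 had differences from -0.10 to -0.04.

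The 3 transmembrane chains, which sit in the plasma membrane and can be shed, varied little. COL23A1 read 9.03, 8.98 and 8.84 with TIP-1 shRNA, against 9.05 and 8.96 in the controls. COL13A1, found at cell adhesion sites and the neuromuscular junction, read 8.28, 8.27 and 8.21 with TIP-1 shRNA, against 8.34 and 8.16 in the controls. COL25A1, a neuronal chain also found in amyloid plaques, read 7.17, 6.95 and 6.82 with TIP-1 shRNA, against 6.99 and 7.12 in the controls. The groups overlapped in all 3, and the differences were -0.05 (95% interval -0.29 to 0.18), 0.00 (-0.22 to 0.22) and -0.08 (-0.38 to 0.23).

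Among the other chains, COL8A1 had the largest difference of all 43. It encodes a short network-forming chain, abundant in the membrane beneath the corneal endothelium and made by vascular cells. COL8A1 read 8.86, 8.72 and 8.64 with TIP-1 shRNA, against 7.56 and 8.22 in the controls. All 3 shRNA arrays were higher than both controls, although the controls themselves were 0.66 apart. The means were 8.74 ± 0.11 (SD, n = 3) with TIP-1 shRNA and 7.89 ± 0.47 (SD, n = 2) in the controls. The difference was 0.85 (1.81-fold higher, SE 0.20, 95% interval 0.38 to 1.33), with an unadjusted limma p of 0.005 and an adjusted p of 0.707. It was 0.52 without control 1 and 1.18 without control 2. COL8A2, with which it can assemble, read 8.13, 7.98 and 7.94 with TIP-1 shRNA, against 8.10 and 8.21 in the controls. There the groups overlapped, with a difference of -0.14 (95% interval -0.38 to 0.10).

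Type VI collagen needs 1 chain each of COL6A1, COL6A2 and a longer partner, here COL6A3, to form its filaments. COL6A1 read 10.51, 10.67 and 11.11 with TIP-1 shRNA, against 10.80 and 10.61 in the controls. COL6A2, its neighbour on chromosome 21, read 10.49, 10.43 and 10.63 with TIP-1 shRNA, against 10.58 and 10.48 in the controls. For both, shRNA 3 was the highest array and the others overlapped. COL6A3 read 10.16, 10.32 and 8.89 with TIP-1 shRNA, against 10.44 and 10.09 in the controls, and there shRNA 3 was the lowest by more than 1 log2 unit. In shRNA 3 the distances from the control mean were thus 0.40, 0.10 and -1.37 for COL6A1, COL6A2 and COL6A3. In shRNAs 1 and 2 those of the 3 chains lay between -0.20 and 0.06. Over all arrays the difference of COL6A3 was -0.47 (SE 0.43, 95% interval -1.51 to 0.56, limma adjusted p = 0.790), and without shRNA 3 it was -0.02. The differences of COL6A1 and COL6A2 were 0.06 (-0.39 to 0.51) and -0.01 (-0.25 to 0.23).

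COL26A1, an EMI domain chain, read 8.72, 8.59 and 8.58 with TIP-1 shRNA, against 8.82 and 8.88 in the controls. Every shRNA array was below both controls (difference -0.22, SE 0.09, 95% interval -0.44 to -0.01, limma adjusted p = 0.707). The remaining members of this class were COL6A5 and COL6A6 of type VI, COL7A1 of the anchoring fibrils of skin, COL10A1 of growth cartilage, the multiplexins COL15A1 and COL18A1, whose ends release antiangiogenic fragments, and COL28A1. Their differences ran from -0.16 for COL7A1 to -0.03 for COL18A1, none past the test.

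**Figure D4:**
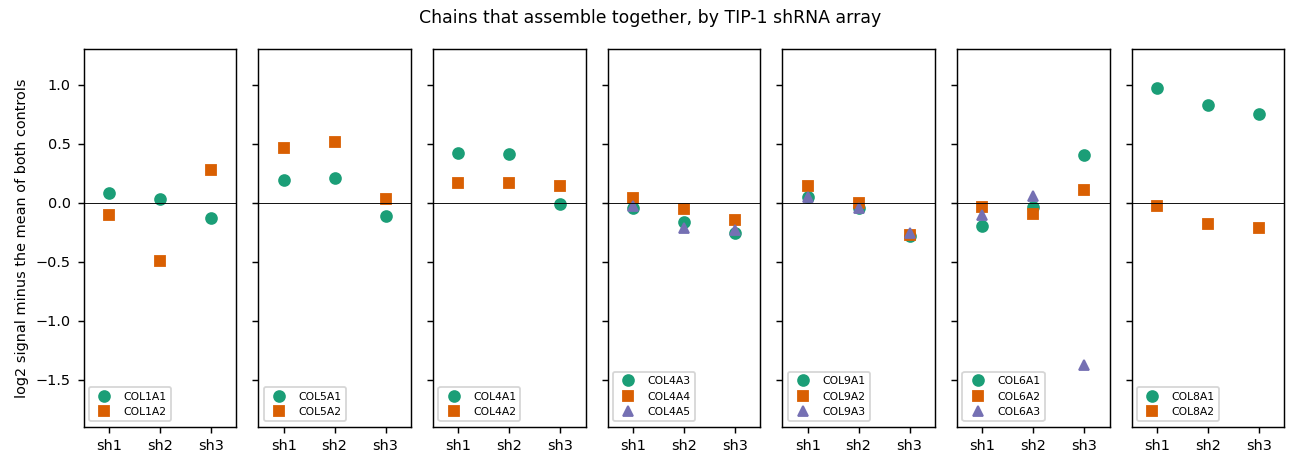
Log2 signal minus the mean of both controls (vertical) in TIP-1 shRNAs 1 to 3 (horizontal) for chains that assemble together, 1 panel per assembly. Type IX chains and the chains COL4A3 to COL4A5 stay at most 0.16 apart in each array. COL8A1 stays 0.97 to 1.01 above COL8A2, and COL6A3 leaves its partners in shRNA 3. Such closeness also occurs outside the panels: COL22A1 lies at 0.02, -0.07 and -0.24, beside 0.05, -0.04 and -0.28 for COL9A1.

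The chains were also set out by array, in comparisons that share both controls. In shRNA 1, 10 chains lay above both controls and 13 below, beside 32.2% and 31.2% of all genes. In shRNA 2 these were 5 and 24, beside 30.8% and 37.7% of all genes. In shRNA 3 they were 6 and 30, beside 35.5% and 41.9% of all genes. shRNA 3 was the lowest of the 5 arrays for 28 of 43 chains, beside 32.5% of all genes. Over the chains the median distance from the control mean was 0.00, -0.08 and -0.16 in shRNAs 1, 2 and 3. Over all genes it was 0.00, -0.01 and -0.02. For the chains dimmer than the median gene it was 0.01, -0.09 and -0.22, beside -0.01, -0.06 and -0.09 for all dimmer genes. For the brighter chains it was -0.02, -0.03 and -0.13, beside 0.02, 0.02 and 0.05 for all brighter genes.

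Distances of at least 0.5 log2 units from the control mean were few, though their share was above that of all genes in each array. In shRNA 1 they were those of COL8A1 and COL12A1, 2 chains (4.65%) beside 2.08% of all genes. In shRNA 2 they were those of COL8A1, COL12A1 and COL5A2, 3 chains (6.98%) beside 2.66% of all genes. In shRNA 3 they were those of COL8A1, COL6A3 and COL11A1, 3 chains (6.98%) beside 5.23% of all genes. These shares rest on few chains and were not tested. COL8A1 was the chain present in each of these sets, with distances of 0.97, 0.83 and 0.76. Of 7 fibroblast markers other than collagens, LUM and PDGFRB, and less so FBLN1, were highest in shRNA 3, whereas THY1, TCF21, DCN and FAP did not set it apart. All 3 TIP-1 shRNA arrays lay above both controls for FBLN1, PDGFRB and TCF21, beside 12.5% of all genes. They lay below both for THY1, beside 14.1%, and overlapped with the controls for DCN, LUM and FAP, beside 73.5%. The mean signal of the 7 was 7.66, 7.66 and 8.03 in shRNAs 1, 2 and 3, against 7.71 and 7.72 in the controls. The receptor gene PDGFRB read 8.67, 8.85 and 9.71 with TIP-1 shRNA, against 8.59 and 8.56 in the controls. LUM, a matrix proteoglycan gene, read 4.87, 4.95 and 6.18 with TIP-1 shRNA, against 5.47 and 5.46 in the controls, and DCN, another, read 5.10, 5.02 and 5.08, against 5.10 and 5.17. The median difference of the 7 was -0.02, and none passed. Their part in the values of shRNA 3 was not tested.

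Genes that make, bind or cut collagen were set beside the chains. Of 29 measured genes for synthesis and processing, 0 passed, 11 were on the higher and 18 on the lower side, beside 52.4% of all genes on the lower side, and the median difference was -0.05. Those with the smallest p were PCOLCE2, an enhancer of propeptide cleavage, LOX, the copper enzyme that starts cross-linking, and the propeptidase ADAMTS3. LOX read 13.27, 12.91 and 13.04 with TIP-1 shRNA, against 13.71 and 13.40 in the controls, all shRNA arrays below both (difference -0.48, SE 0.15, limma adjusted p = 0.707). PCOLCE2 read 8.60, 8.71 and 8.66 with TIP-1 shRNA, against 9.43 and 8.97 in the controls (difference -0.54, SE 0.15, adjusted p = 0.707). ADAMTS3 was dimmer, with a difference of -0.21.

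Of 11 measured collagen receptors, 0 passed, 2 were on the higher and 9 on the lower side, beside 52.4% of all genes on the lower side, with a median of -0.04. The receptor kinase DDR1 read 10.36, 10.36 and 10.39 with TIP-1 shRNA, against 10.15 and 9.85 in the controls, each shRNA array above both (difference 0.37, SE 0.11, limma adjusted p = 0.707). The integrin chain ITGA11, which binds fibrillar collagen, read 9.55, 9.49 and 8.24 with TIP-1 shRNA, against 7.96 and 8.01 in the controls, so all 3 shRNA arrays were above both controls and shRNAs 1 and 2 were far above shRNA 3 (difference 1.11, SE 0.39, limma adjusted p = 0.707). ITGA10 differed by -0.23. Of 8 collagen-degrading enzymes, 0 passed, 3 were on the higher and 5 on the lower side, beside 52.4% of all genes on the lower side. Their median was -0.01, and the groups overlapped for every enzyme, beside 73.5% of all genes. MMP9, MMP2 and MMP13 had the smallest p, with differences of -0.13, 0.23 and 0.14. MMP2, a gelatinase, read 9.13, 9.06 and 8.89 with TIP-1 shRNA, against 9.27 and 8.32 in the controls.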

How the data were processed

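Total RNA of 5 D54 samples was labelled as single-stranded cDNA and hybridised, 1 array each. The deposited values are log2 signals that the authors produced with the Affymetrix Exon Array Computational Tool, per the series' design text. The sources used here give neither the version nor the background correction and normalization. Although the design text names the exon array, rows were annotated by the gene-level version, 1 value per transcript cluster. Of 33297 rows, 19460 had 1 gene symbol, 1754 several and 12083 none. Of the single-symbol rows, 19429 were looked up by gene identifier in a RefSeq table of GRCh38.p14, and no symbol changed. Values were used as deposited. Over the 5 arrays the lower quartiles ran from 6.35 to 6.45 and the upper quartiles from 9.77 to 9.83. The lower quartiles thus spread about as much as the median difference of the chains, -0.09.

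Differences are TIP-1 shRNA minus control, and each row of the 33297 was fitted in R 4.3.3 by limma 3.58.1, using a two-sided moderated test with Benjamini-Hochberg adjustment, a threshold of 0.05 and 95% intervals. The test was tested on simulated data. The array number, 2 against 3, limits the precision; an exact permutation test of 1 gene cannot go below p = 0.1 here, so none was run. The members, classes and lists of related genes and markers were chosen with earlier results of these data known. Values by array are given for the 3 brightest chains of each class, those with an unadjusted p under 0.05 or a difference of at least 0.5, and their assembly partners; from each related list, the 3 genes with the smallest p are named. COL4A6, COL11A1, COL3A1 and the chains named only within counts or ranges, and the named markers, were named after their values were seen. Alternatives were quantile normalization, median centring, bright rows only, a trended robust fit, array weights, a replicate block, the mean of a gene's rows, and leaving out each array. Replicate numbers were not taken as pairs.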

Additional observations from a re-analysis of the deposited data

How the results depend on the processing

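No chain passed limma's adjusted threshold with all arrays or on omitting 1 TIP-1 shRNA array. Without shRNA 2, 0 rows of the whole table passed, that of TAX1BP3 included, so that setting says nothing particular to the chains. Without control 1 or control 2 a single control array was left, whose spread cannot be measured, so no call was read from these settings. At an unadjusted p under 0.05 there were 3 chains, and 2 to 6 under the other settings with all arrays. The 6 came with array weights, which gave shRNA 3 the lowest weight. There were 4 without shRNA 1, 1 without shRNA 2 and 5 without shRNA 3. The median difference of the chains, -0.09, was -0.04 with quantile normalization, -0.03 with median centring, and between -0.14 and -0.03 on omitting a single array (-0.03 without shRNA 3). Chains with the TIP-1 shRNA arrays all on 1 side of both controls numbered 11 as deposited, 8 with quantile normalization, 9 with median centring, 7 with bright rows only, where fewer chains were tested, and between 12 and 28 on omitting a single array (21 without shRNA 1, 28 without control 1 and 19 without control 2), since fewer arrays are easier to separate. Arrays sharing a replicate number deviated together at r = 0.049 and -0.053, and the numbers were therefore not read as pairs; with the replicate block, 0 chains passed and their median was -0.03, while 15 rows of the whole table passed instead of 1.

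Of 294 values of the named chains under the alternatives, 259 kept direction and side of the threshold and 35 changed sign, all of chains whose difference did not pass. With median centring, which raised all differences, COL1A1 came to 0.054, COL4A4 to 0.008, COL9A2 to 0.014, COL23A1 to 0.007 and COL6A2 to 0.052. With quantile normalization COL4A4 came to 0.018. Array weights gave 0.027 for COL1A1, 0.008 for COL9A2 and -0.034 for COL6A1. The replicate block gave 0.053 for COL1A1, 0.001 for COL9A3, COL9A1 and COL23A1, 0.068 for COL9A2, 0.004 for COL25A1 and -0.115 for COL6A1. Leaving out 1 array gave -0.068 to 0.055 for COL1A1, -0.503 to 0.286 for COL1A2, -0.067 to 0.259 for COL5A1, -0.115 to 0.186 for COL6A1, -0.065 to 0.044 for COL6A2, -0.161 to 0.001 for COL9A1, -0.144 to 0.068 for COL9A2, -0.151 to 0.001 for COL9A3, -0.082 to 0.088 for COL13A1, -0.101 to 0.001 for COL23A1 and -0.171 to 0.004 for COL25A1; the cause was not tested. COL8A1 stayed between 0.52 and 1.18 and COL12A1 between -1.17 and -0.41. With array weights and with the replicate block COL12A1 came to -1.07 and -1.17 and COL6A3 to -0.12 and -0.02, none past the threshold. The table holds no background signal, so what dim rows can resolve is unknown.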

Other observations

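COL11A2 was represented by 3 rows. Its brightest row read 8.44, 8.41 and 8.25 in TIP-1 shRNAs 1, 2 and 3, against 8.35 and 8.52 in the controls. The other rows held identical values, 7.56, 7.53 and 7.54 with TIP-1 shRNA, against 7.61 and 7.83 in the controls, so that the groups overlapped in the first row and not in the others. The differences were -0.07 and -0.17 (limma adjusted p = 0.870 and 0.719). COL18A1-AS1, an antisense transcript of the COL18A1 locus, differed by -0.04, close to the -0.03 of COL18A1. A second row carrying the COL1A2 symbol together with that of the pancreatic lipase PNLIP differed by -0.17 and was not counted as a collagen row.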
